A study of Homo sapiens with 9 samples.

Results

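The list holds 55 genes that lie in order on the long arm of human chromosome 8, from YTHDF3 towards the centromere to MTSS1 towards the end of the arm. The members were selected on the log2 differences among SCP51, SCP58 and SW480/EGFP, as neighbours in a stretch that earlier results of these data had shown to be lower in SCP51 than in SCP58, so the difference between these lines chose the stretch, and the values and limma calls of that contrast are given below as a description and support nothing. All probe sets annotated to exactly 1 member symbol were used. There were 148 of them for 54 of the 55 genes, and 121 passed a filter on dim signals. UBE2W had no probe set carrying its symbol alone in the annotation used here, and the other 54 genes all passed, out of 13598 genes tested on the arrays. The order of genes was taken from a RefSeq table of GRCh38.p14. No coordinates are given, since no build is named for the arrays.

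The samples were cultures of a human colorectal carcinoma line, SW480, that expresses EGFP. SCP51 was the derived line of high and SCP58 that of low metastatic potential in mice after implantation at the organ of origin, and each was grown from 1 cell of the parental population, SW480/EGFP. All 3 groups therefore come from SW480 and carry the EGFP marker. Each derived line is 1 clone, and each metastatic class is represented by 1 line. Whether the genomes of the 3 groups differ was not measured. Every group had 3 arrays, named as biological replicates, but the labels leave unsaid whether these came from independent cultures, and every p-value reflects array-to-array spread alone.

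Genes that lie close together on a chromosome often share a copy number, and RNA levels of many genes follow the number of copies. The long arm of chromosome 8 is among the segments often gained in colorectal cancer. Most of the listed genes are housekeeping genes with unrelated tasks, among them translation initiation, ubiquitin handling, membrane traffic and mitochondrial metabolism. Copy number was not measured here.

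RNA from cultured cells was labelled with biotin and hybridised to Affymetrix arrays, and the deposited value of a probe set is a signal on a linear scale without units. Array medians of this signal ranged from 41.2 to 44.3. All 8 markers of colorectal epithelium examined, EPCAM and KRT8 among them, lay above the array median on all 9 arrays, while the leukocyte marker PTPRC, the endothelial marker CDH5 and the fibroblast marker LUM lay below it on every array. Other markers of these cell types were not uniformly low. CD3E and COL1A1 were above the median on all 9 arrays, with signals of 71.9 to 90.8 and 126 to 172, DCN was above it on 8 arrays, PECAM1 on 6, and KDR and PDGFRB on 2 each. SCP51 replicate 1 stood apart. Its correlation with the other arrays across genes was 0.891 to 0.911, against 0.945 to 0.979 among the other 8 arrays, where genes are not independent replicates. Differences between SCP51 and SCP58 of single members and role groups that move by more than 1.5 times without SCP51 replicate 1 are given both ways where described.

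Nearly the whole list was lower in SCP51 than in SCP58. The differences below are log2 differences from which the median of all 13598 genes has been subtracted, called relative differences, because the median gene itself differed by -0.11 between SCP51 and SCP58. Of the 54 genes, 51 had a relative difference below 0, with a median of -0.59, quartiles of -0.89 and -0.36, and a range of -1.77 to 0.24. That median corresponds to a signal 33.6% lower in SCP51 relative to the median gene. In RNA from whole cultures, fewer cells expressing a gene and less RNA per cell cannot be told apart. A difference of more than 1 log2 unit, or 2-fold, was seen for 10 members, against 2% of all genes. The SCP51 arrays lay wholly below the SCP58 arrays for 39 members, against 17.2% of all genes, and wholly above them for none, against 7.91%. Over all genes tested the median is 0 by construction. Without SCP51 replicate 1 the median of the members was -0.42, a signal 25.5% lower relative to the median gene. Then 49 members were below 0 and 6 were lower by more than 1 log2 unit.

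A gene was called when its limma adjusted p, taken over all genes tested, was under 0.05. The test was of the log2 difference before the median of all genes was subtracted. That median was -0.11 between SCP51 and SCP58 and -0.10 between SCP51 and SW480/EGFP, which favours calls of lower over calls of higher. Between SCP51 and SCP58, 17 members were called, all lower in SCP51, against 2.6% of all genes called lower, 1.48% called higher and 4.08% in either direction. This contrast chose the stretch, so nothing is read from that share. The number depended on single arrays, as did the share of all genes called in either direction. It was 28 on leaving out SCP51 replicate 1 (8.8% of all genes) and 8 on leaving out its replicate 2 (1.4%). When SCP58 replicates 1, 2 and 3 were dropped it was 11, 6 and 5 (2.5%, 1.04% and 1.22%). Without SW480/EGFP replicate 3, which enters through the shared spread, it was 11 (1.83%). All 17 members called on the 9 arrays were also called without SCP51 replicate 1.

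**Figure D1:**
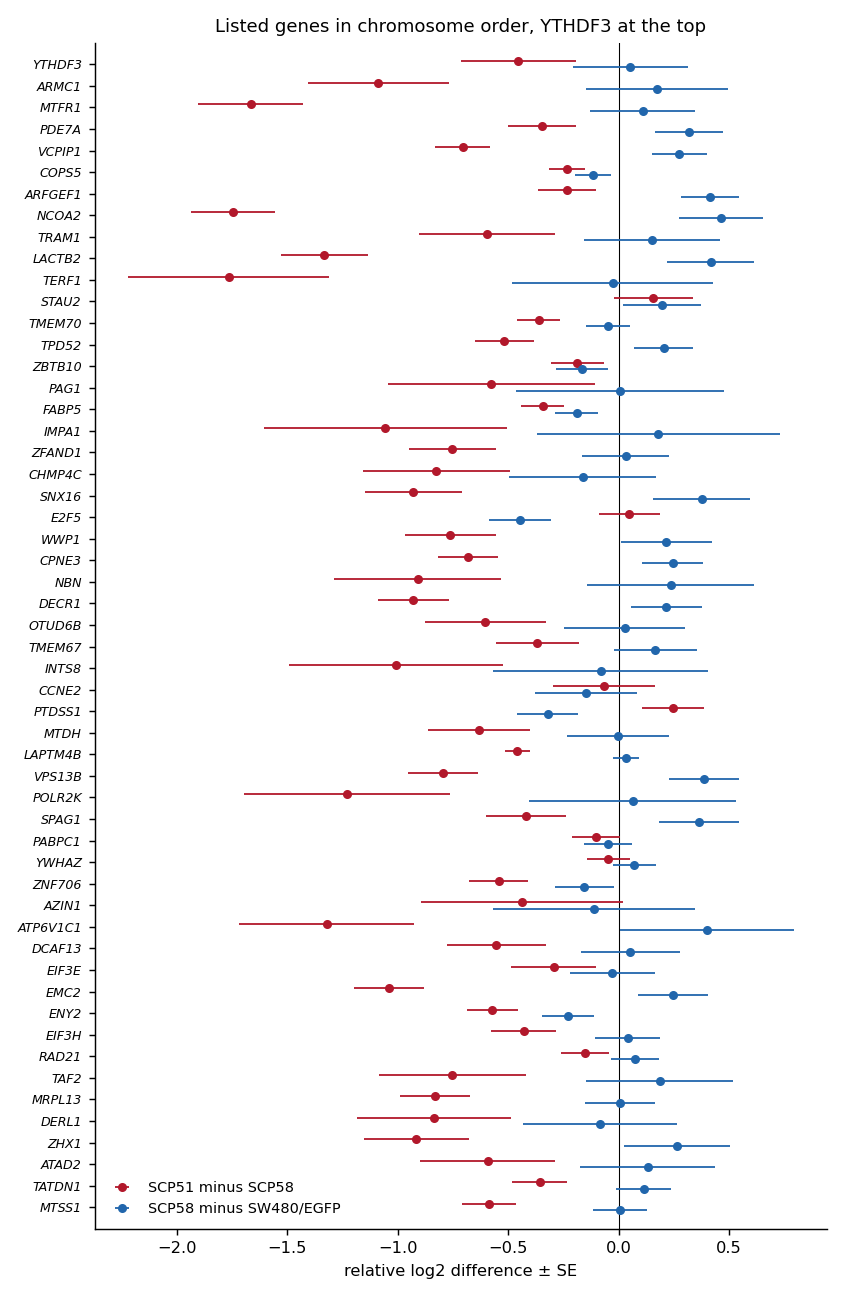
Relative log2 difference of the 54 measured genes in chromosome order, with YTHDF3 at the top and MTSS1 at the bottom, for SCP51 minus SCP58 (red) and SCP58 minus SW480/EGFP (blue). Points are differences of means of 3 arrays per group and bars are standard errors from the limma fit. Of the red points 51 lie left of 0, while the blue points lie on both sides of it with a median of 0.07.

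To show the list array by array, each gene was set against its own mean over the 9 arrays, and the median over the members was taken relative to that over all genes. This level was -0.57, -0.21 and -0.29 log2 units on the SCP51 arrays, against 0.09, 0.26 and 0.35 on the SCP58 arrays and 0.18, 0.10 and 0.15 on the SW480/EGFP arrays. All 3 SCP51 arrays were below the other 6, and SCP51 replicate 1 was the lowest. The SCP58 arrays and the SW480/EGFP arrays overlapped. For the measured neighbours within the stretch that are not on the list, the level was -0.32, -0.25 and -0.32 in SCP51, against 0.14, 0.15 and 0.24 in SCP58 and 0.14, 0.07 and 0.13 in SW480/EGFP. In these neighbours SCP51 replicates 1 and 3 were level, whereas in the listed genes replicate 1 was the lower.

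**Figure D2:**
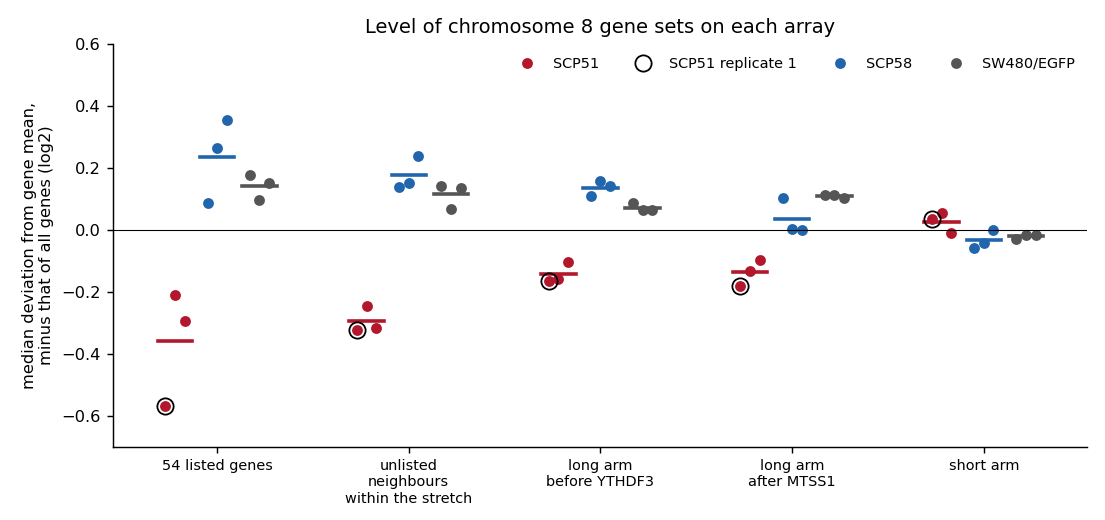
Level of gene sets of chromosome 8 on each of the 9 arrays, as the median log2 deviation of their genes from each gene's mean over all arrays, minus the same median over all genes. Points are arrays, bars are means of 3 arrays, and circles mark SCP51 replicate 1. In the listed genes the SCP51 arrays lie between -0.57 and -0.21 and the SCP58 and SW480/EGFP arrays between 0.09 and 0.35, while on the short arm all arrays lie within -0.06 and 0.05.

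The listed genes did not stand out from the unlisted genes among which they lie. These neighbours, 105 in number, had a median relative difference of -0.47 between SCP51 and SCP58, with 90 below 0 and 33 called lower, and none called higher. That is 31.4% of them called lower, beside 31.5% of the members. With members and neighbours joined, the stretch held 159 measured genes, a median of -0.52 and 50 called genes. The members were split in chromosome order into 6 blocks of 9 genes. Their medians were -0.60 from YTHDF3 to TRAM1, -0.52 from LACTB2 to IMPA1, -0.76 from ZFAND1 to OTUD6B, -0.46 from TMEM67 to SPAG1, -0.54 from PABPC1 to ENY2 and -0.59 from EIF3H to MTSS1. Without SCP51 replicate 1 the block from LACTB2 to IMPA1 stood at -0.33 and that from PABPC1 to ENY2 at -0.31. The difference was thus present in every block.

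The pattern ran on past the YTHDF3 end of the list and was weaker past the MTSS1 end. The 3 measured genes before YTHDF3 were ASPH, which encodes an aspartate hydroxylase of the endoplasmic reticulum, GGH, which encodes a gamma-glutamyl hydrolase acting on folates, and the divergent transcript YTHDF3-DT. Their relative differences between SCP51 and SCP58 were -0.28, -1.05 and -0.34, and YTHDF3 itself, just inside, stood at -0.45. At the other end MTSS1 stood at -0.59, and the next measured genes, ZNF572, the squalene epoxidase gene SQLE and WASHC5, stood at -0.10, 0.10 and -0.98. Among the 20 measured genes before YTHDF3 the median was -0.70 and 8 were called lower. Nearer the centromere, the first 15 measured genes of the long arm had a median of -0.09 and no called gene. After MTSS1, the first 20 genes had a median of -0.13, or -0.07 without SCP51 replicate 1, with 1 called lower, and all 105 measured genes up to the end of the arm had a median of -0.17 with 12 called lower. The 174 genes of the short arm had a median of 0.07, with 4 called lower and 8 higher. Of the 23 chromosomes with at least 100 tested genes, chromosome 8 had the lowest median, -0.15 over 473 genes, and the others ranged from -0.04 to 0.06.

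**Figure D3:**
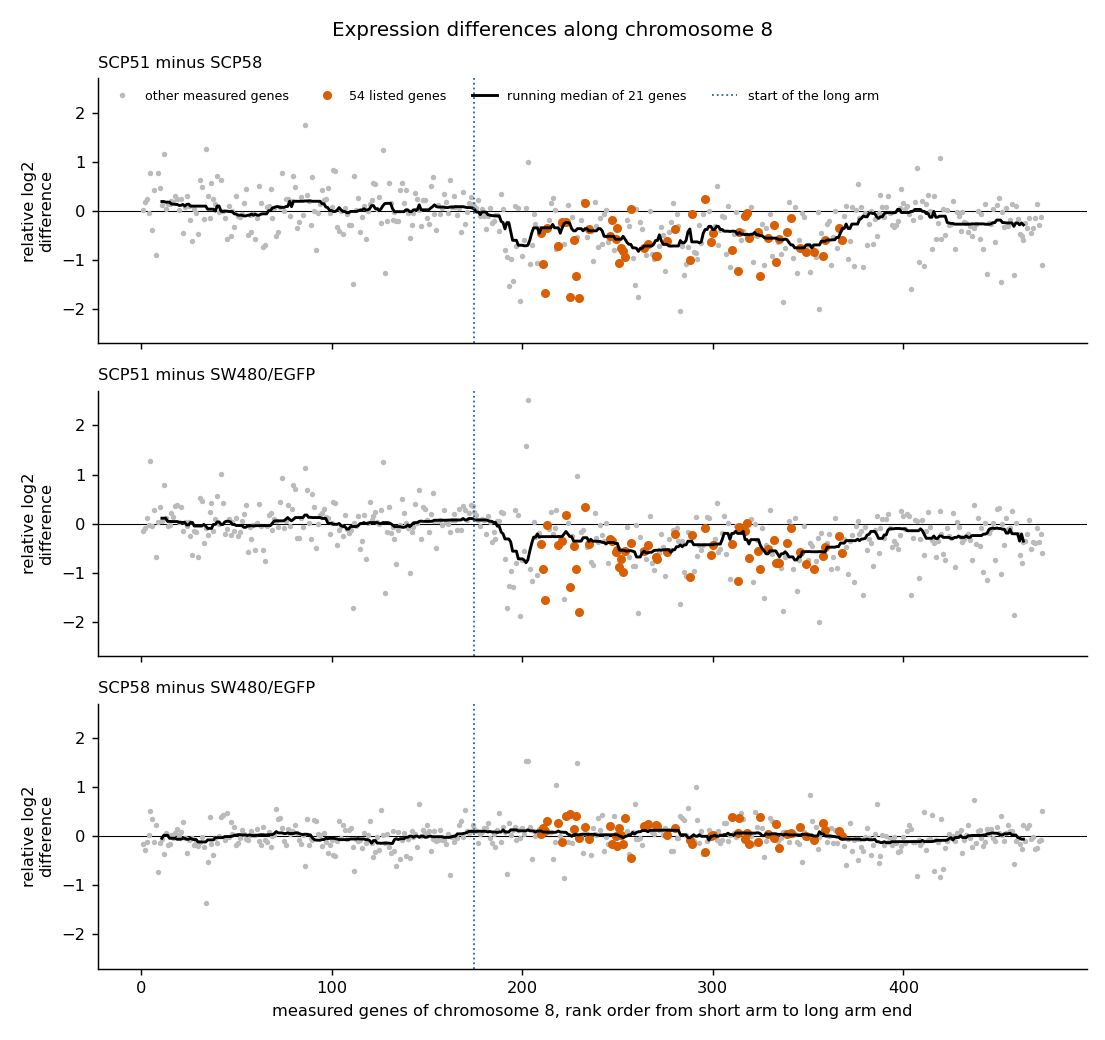
Relative log2 difference of the 473 measured genes of chromosome 8 in rank order, from the end of the short arm to the end of the long arm, for SCP51 minus SCP58 (top), SCP51 minus SW480/EGFP (middle) and SCP58 minus SW480/EGFP (bottom). Each point is a gene, orange points are the 54 listed genes, the black line is the running median of 21 genes and the dotted line marks the start of the long arm. In the upper panels the line leaves 0 within the long arm before the listed genes begin, and in the bottom panel it stays near 0 throughout.

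Against the parental population most of the listed genes were again lower in SCP51. Because this comparison shares the SCP51 arrays with the one that chose the stretch, it is no independent check. The members had a median relative difference of -0.55 between SCP51 and SW480/EGFP, a signal 31.5% lower relative to the median gene. Of the members, 51 were below 0. Those 51 were not all the genes below 0 against SCP58: ARFGEF1 and YWHAZ stood at 0.17 and 0.02 against SW480/EGFP, whereas E2F5 and PTDSS1 stood at -0.40 and -0.08. In this comparison 13 members were called, all lower, against 1.58% of all genes called lower, 1.38% called higher and 2.96% in either direction. Arrays of SCP51 lay wholly below those of SW480/EGFP for 39 members, against 18.6% of all genes, and wholly above them for none, against 9.5%. The count of 13 became 19 on leaving out SCP51 replicate 1, against 5.27% of all genes called in either direction. It was 6 on leaving out SCP51 replicate 2, against 1.3%. When SW480/EGFP replicates 1, 2 and 3 were dropped it was 4, 6 and 3, against 1.01%, 1.14% and 0.934%. Of the called members, 12 were called lower in SCP51 against both SCP58 and SW480/EGFP. COPS5 was called only against SW480/EGFP, and VCPIP1, TPD52, SNX16, CPNE3 and VPS13B only against SCP58. Whether these genes differ between the comparisons is the difference between SCP58 and SW480/EGFP, in which none of them was called.

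Between SCP58 and the parental population the median of the list was close to 0. This comparison shares the SCP58 arrays with the one that chose the stretch, so it is no independent check. The median relative difference between SCP58 and SW480/EGFP was 0.07, with 17 members below 0, and it was 0.17 without SCP58 replicate 1, 0.02 without SCP58 replicate 3 and 0.10 without SW480/EGFP replicate 1. No member was called by limma in either direction, against 0.14% of all genes in either direction, 0.0735% lower and 0.0662% higher. With so few genes called anywhere, the absence of called members says little about the list. At an unadjusted p under 0.05 there were 5 members, 3 of them higher in SCP58, against 8.6% of all genes. With array weights 7 members were called, 3 lower and 4 higher, against 9.94% of all genes in either direction. SCP58 arrays lay wholly above the SW480/EGFP arrays for 6 members and wholly below them for 3, against 9.41% and 7.58% of all genes. The furthest values were 0.46 ± 0.19 for NCOA2 and -0.45 ± 0.14 for E2F5 (SE, n = 3 per group).

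The mean of both derived lines was also set against the parental population. This comparison asks whether the parent lies midway between its derived lines. It would be statistically independent of the difference between SCP51 and SCP58 only with equal spread in both, and the median SD of a member was 0.32 log2 units in SCP51 and 0.20 in SCP58, so it is no independent check either. The members lay below 0 in 49 of 54 cases, with a median of -0.23, or -0.13 without SCP51 replicate 1. By limma no member was called, against 0.64% of all genes in either direction, 0.213% lower and 0.427% higher. The smallest adjusted p was 0.0546, for ENY2, at -0.52 ± 0.10. At an unadjusted p under 0.05 there were 15 members, all lower in the derived lines, against 11.2% of all genes. Array weights gave 13 called members, against 9.6% of all genes. Without SCP51 replicate 1 there were 4, against 1.42% of all genes, namely ENY2, FABP5, LAPTM4B and MTFR1 (limma adjusted p = 0.0325, 0.0241, 0.0396 and 0.0209). Without SCP51 replicate 3 there was 1, against 0.699%. By size of the relative difference, SW480/EGFP lay nearer to SCP58 than to SCP51 for 48 of the 54 members, against 63.4% of all genes.

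Within the list, genes for mitochondrial and metabolic proteins had the lowest median of the role groups with all arrays, and genes of membrane traffic and the endoplasmic reticulum had it, at -0.67, without SCP51 replicate 1. The 8 mitochondrial and metabolic genes had a median relative difference of -0.99 between SCP51 and SCP58, or -0.52 without SCP51 replicate 1, with 7 below 0 and 5 called lower. MTFR1, a regulator of mitochondrial fission, had signals of 139, 271 and 253 in SCP51, against 663, 725 and 785 in SCP58 and 664, 648 and 702 in SW480/EGFP. All SCP51 arrays were far below the other 6, and the relative difference to SCP58 was -1.66 ± 0.24 (SE, n = 3 per group). LACTB2, an endoribonuclease of mitochondria, had signals of 194, 166 and 174 in SCP51, against 351, 556 and 570 in SCP58 and 334, 405 and 346 in SW480/EGFP. Its groups SCP51 and SCP58 did not overlap, at -1.33 ± 0.20.

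FABP5, a carrier of fatty acids, was the brightest of these genes, with 2241, 2634 and 2817 in SCP51, against 3719, 3371 and 3373 in SCP58 and 4119, 3718 and 4105 in SW480/EGFP. All SCP51 arrays lay below the other 6, SCP58 and SW480/EGFP met at their closest arrays, and the relative difference of SCP51 to SCP58 was -0.34 ± 0.10. The signals of TMEM70, an assembly factor of the ATP synthase, were 1713, 1933 and 2212 in SCP51, against 2780, 2684 and 2593 in SCP58 and 2846, 2792 and 2694 in SW480/EGFP. The SCP51 arrays were again the lowest, at -0.36 ± 0.10. DECR1, a reductase of fatty acid oxidation, stood at -0.93 ± 0.16 and ARMC1, a protein of the outer mitochondrial membrane, at -1.09 ± 0.32, or -0.71 for ARMC1 without SCP51 replicate 1. The member of this group that went the other way was PTDSS1, which makes phosphatidylserine, with 711, 966 and 844 in SCP51, against 704, 724 and 851 in SCP58 and 986, 898 and 958 in SW480/EGFP. Its SCP51 and SCP58 arrays overlapped, at 0.24 ± 0.14.

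The 9 genes of transcription and chromatin had a median of -0.75, or -0.38 without SCP51 replicate 1, with 8 below 0 and 2 called lower. NCOA2, a coactivator of nuclear receptors, had signals of 74.9, 54.6 and 58.7 in SCP51, against 184, 208 and 296 in SCP58 and 160, 163 and 166 in SW480/EGFP. No groups overlapped for NCOA2, with SCP51 lowest and SCP58 highest. Its relative difference between SCP51 and SCP58 was -1.75 ± 0.19, with -1.37 after adding 32 to every signal and -0.98 as an average over its probe sets. ENY2, a subunit of the SAGA coactivator and of the mRNA export machinery, had signals of 844, 806 and 1054 in SCP51, against 1503, 1414 and 1380 in SCP58 and 1689, 1649 and 1698 in SW480/EGFP. ENY2 was in order SCP51, SCP58 and SW480/EGFP with no overlap, and its relative difference to SCP58 was -0.57 ± 0.12.

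E2F5, a repressor of the E2F family, was unlike its neighbours. Its signals were 148, 133 and 126 in SCP51, against 152, 118 and 156 in SCP58 and 208, 179 and 190 in SW480/EGFP. Both derived lines lay below the parental population and overlapped each other, with a relative difference of 0.05 ± 0.14, or -0.07 without SCP51 replicate 1. ATAD2, a bromodomain ATPase, had 502, 1224 and 923 in SCP51, against 1112, 1247 and 1746 in SCP58 and 1231, 1314 and 1140 in SW480/EGFP. Its groups overlapped through SCP51 replicate 2, and its other kept probe sets, all dimmer, stood at -0.26, 0.41 and -0.51. For the probe set taken, the relative difference of -0.59 ± 0.31 was -0.29 without SCP51 replicate 1. The zinc finger proteins ZBTB10 and ZHX1 stood at -0.19 ± 0.12 and -0.92 ± 0.24, and at -0.31 and -0.68 without that array.

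Genes of membrane traffic and the endoplasmic reticulum stood below 0 in 11 of 11 cases, with a median of -0.68, or -0.67 without SCP51 replicate 1, and 6 were called lower. LAPTM4B, a lysosomal membrane protein, had the smallest standard error of the list, with 3046, 3064 and 3366 in SCP51, against 4603, 4716 and 4670 in SCP58 and 4489, 4553 and 4622 in SW480/EGFP. The SCP51 arrays were clearly apart, at -0.46 ± 0.06. TPD52, a vesicle traffic protein overexpressed in several carcinomas, had 1418, 1284 and 1151 in SCP51, against 1650, 2055 and 2254 in SCP58 and 1610, 1808 and 1720 in SW480/EGFP. The SCP51 arrays were the lowest, at -0.52 ± 0.13, or -0.23 as an average over its probe sets.

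TRAM1, which helps proteins across the membrane of the endoplasmic reticulum, had 877, 1932 and 2006 in SCP51, against 1883, 2724 and 2847 in SCP58 and 2055, 2407 and 2158 in SW480/EGFP. Its SCP51 and SCP58 arrays overlapped, and its value of -0.60 ± 0.31 was -0.26 without SCP51 replicate 1. EMC2, a subunit of the complex that inserts membrane proteins, stood at -1.04 ± 0.16, and its value was -1.15 without that array. The endosomal sorting nexin SNX16 stood at -0.93 ± 0.22, the lipid transfer protein VPS13B at -0.80 ± 0.16 and the copine CPNE3, which binds membranes with calcium, at -0.68 ± 0.14. ARFGEF1, an exchange factor for ARF GTPases, stood at -0.23 ± 0.13 and had higher signals in SCP58 than in SW480/EGFP, at 0.41 ± 0.13, without a call. TMEM67, a membrane protein of the base of cilia, stood at -0.37 ± 0.19, or -0.23 without SCP51 replicate 1.

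The 7 genes of ubiquitin handling and protein turnover had a median of -0.70, or -0.42 without SCP51 replicate 1, with 7 below 0 and 1 called lower. The called gene was VCPIP1, a deubiquitinating enzyme, at -0.70 ± 0.12. COPS5, the catalytic subunit of the COP9 signalosome, had 1496, 1545 and 1636 in SCP51, against 2067, 1947 and 1902 in SCP58 and 2205, 2033 and 2176 in SW480/EGFP. All SCP51 arrays were below the other 6, although the difference was small, at -0.23 ± 0.08 to SCP58 and -0.36 ± 0.08 to SW480/EGFP.

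AZIN1, an inhibitor of antizyme that keeps polyamine synthesis active, had 652, 2725 and 2156 in SCP51, against 2046, 2136 and 2714 in SCP58 and 2684, 2109 and 2638 in SW480/EGFP. Only SCP51 replicate 1 was low, and without it the relative difference of -0.44 ± 0.46 became 0.14. DERL1, a channel component for degradation at the endoplasmic reticulum, had 312, 865 and 789 in SCP51, against 953, 1277 and 1242 in SCP58 and 1186, 1327 and 1148 in SW480/EGFP. All SCP51 arrays were below the other 6, at -0.84 ± 0.35, or -0.42 without SCP51 replicate 1. WWP1, a ubiquitin ligase, stood at -0.76 ± 0.21 and OTUD6B, a deubiquitinating enzyme, at -0.60 ± 0.27, or -0.39 for OTUD6B without SCP51 replicate 1. The zinc finger protein ZFAND1 stood at -0.75 ± 0.20.

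In the 8 genes of RNA binding and translation the median was -0.44, or -0.25 without SCP51 replicate 1, with 7 below 0 and 2 called lower, MRPL13 and ZNF706. PABPC1, which coats the poly(A) tails of mRNA and was the brightest member of the list, had signals of 5206, 7236 and 6797 in SCP51, against 7168, 7106 and 7754 in SCP58 and 7673, 7452 and 7634 in SW480/EGFP. The SCP51 and SCP58 arrays overlapped, at -0.10 ± 0.11, or -0.02 without SCP51 replicate 1. EIF3E, a subunit of the initiation factor eIF3, had 2529, 4573 and 4313 in SCP51, against 4715, 4794 and 5053 in SCP58 and 4999, 4849 and 5007 in SW480/EGFP. SCP51 was lowest on all 3 arrays, at -0.29 ± 0.19, but at -0.08 without SCP51 replicate 1.

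EIF3H, another subunit of eIF3, had 2120, 3056 and 3298 in SCP51, against 4039, 4044 and 3983 in SCP58 and 3787, 4127 and 3831 in SW480/EGFP. Its SCP51 arrays were all apart from the rest, at -0.43 ± 0.15. MRPL13, a protein of the mitochondrial ribosome, stood at -0.83 ± 0.16 and the zinc finger protein ZNF706 at -0.54 ± 0.13, values of -0.86 and -0.61 without SCP51 replicate 1. The other kept probe set of ZNF706, a dimmer one, stood at 0.47. YTHDF3, which reads methylated adenosine in mRNA, stood at -0.45 ± 0.26, and DCAF13, which takes part in making ribosomal RNA, at -0.55 ± 0.22. These became -0.21 and -0.31 without SCP51 replicate 1. STAU2, a protein that binds double-stranded RNA, had 135, 162 and 128 in SCP51, against 130, 112 and 172 in SCP58 and 106, 133 and 119 in SW480/EGFP. STAU2 showed overlapping groups and a relative difference of 0.16 ± 0.18, whereas its other kept probe set, a dimmer one, stood at -0.59.

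Genes of genome maintenance and the cell cycle numbered 5, with a median of -0.36, or -0.47 without SCP51 replicate 1, 5 below 0 and none called. TERF1, which binds telomere repeats, had the lowest value of the list at -1.77 ± 0.46, with signals of 43.9, 87.1 and 201 in SCP51, against 367, 274 and 374 in SCP58 and 363, 322 and 341 in SW480/EGFP. The SCP51 arrays were all below the rest and differed widely among themselves, and the other probe set of TERF1 stood at -0.20. RAD21, the cleavable subunit of cohesin, had 1987, 2014 and 1791 in SCP51, against 2047, 2227 and 2685 in SCP58 and 2214, 2157 and 2208 in SW480/EGFP. The SCP51 arrays were the lowest by a narrow margin, at -0.15 ± 0.11, or -0.23 without SCP51 replicate 1.

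TATDN1, a predicted nuclease, had 959, 772 and 873 in SCP51, against 1223, 1219 and 1135 in SCP58 and 1155, 968 and 1196 in SW480/EGFP. All SCP51 arrays were below the other 6, at -0.36 ± 0.12. CCNE2, an E-type cyclin, had 429, 692 and 574 in SCP51, against 511, 607 and 785 in SCP58 and 838, 582 and 683 in SW480/EGFP. All 3 groups of CCNE2 overlapped, at -0.07 ± 0.23, or 0.06 without SCP51 replicate 1. NBN, which senses DNA breaks within the MRN complex, stood at -0.91 ± 0.38, or -0.47 without SCP51 replicate 1.

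The last group, 6 genes of signalling and cell structure, had a median of -0.50, or -0.41 without SCP51 replicate 1, with 6 below 0 and 1 called lower, MTSS1. YWHAZ, an adaptor that binds phosphorylated serine, had 4600, 4931 and 4436 in SCP51, against 4436, 5312 and 5850 in SCP58 and 4792, 5084 and 4891 in SW480/EGFP. Its groups overlapped, at -0.05 ± 0.10, or -0.09 without SCP51 replicate 1. MTDH, a membrane-bound protein tied to tumour spread in several cancers, had 639, 1075 and 1324 in SCP51, against 1713, 1526 and 1609 in SCP58 and 1614, 1699 and 1539 in SW480/EGFP. The SCP51 arrays of MTDH were all below the rest, at -0.63 ± 0.23, or -0.39 without SCP51 replicate 1.

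SPAG1, which takes part in the assembly of dynein arms of cilia, had 152, 192 and 150 in SCP51, against 181, 261 and 276 in SCP58 and 194, 172 and 182 in SW480/EGFP. SCP51 and SCP58 overlapped, at -0.42 ± 0.18. MTSS1, which links the plasma membrane to actin, was dim, with 59.1, 53.9 and 54.5 in SCP51, against 97.4, 77.9 and 96.8 in SCP58 and 84.0, 98.0 and 88.3 in SW480/EGFP. The SCP51 arrays were the lowest, at -0.59 ± 0.12, whereas the other kept probe set of MTSS1 went the other way, at 0.18. The phosphodiesterase PDE7A stood at -0.35 ± 0.15 and the membrane adaptor PAG1 at -0.58 ± 0.47, a value of 0.03 without SCP51 replicate 1.

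The difference was described against brightness as well. The Spearman correlation between a gene's mean log2 signal and its relative difference between SCP51 and SCP58 was 0.27 over 54 genes, which share the same arrays, and 0.35 without SCP51 replicate 1. Some of the brightest members, PABPC1 and YWHAZ, had differences near 0, whereas LAPTM4B, also bright, did not.

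SCP51 replicate 1 carried part of the size of the difference in many members. It was the lowest of all 9 arrays for 34 of the 54 genes, against 32% of all genes. In 11 members it lay more than 1 log2 unit below both other SCP51 arrays, against 9.06% of all genes. These were ARMC1, TRAM1, PAG1, IMPA1, NBN, INTS8, POLR2K, AZIN1, ATP6V1C1, TAF2 and DERL1. IMPA1, which makes free inositol, had signals of 299, 1554 and 1493 in SCP51, against 1690, 2049 and 2247 in SCP58 and 1826, 1546 and 1904 in SW480/EGFP. Its relative difference was -1.06 ± 0.55 with all arrays and -0.33 without SCP51 replicate 1. POLR2K, a small subunit shared by the nuclear RNA polymerases, had 307, 1113 and 1352 in SCP51, against 1909, 2011 and 1928 in SCP58 and 1922, 1703 and 1985 in SW480/EGFP. For POLR2K the other SCP51 arrays were also below the rest, and the value was -1.23 ± 0.47 with all arrays and -0.62 without that array. The median SD of a member within SCP51 was 0.32 log2 units, or 0.14 without replicate 1, against 0.20 in SCP58 and 0.09 in SW480/EGFP. What set this array apart was not tested.

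**Figure D4:**
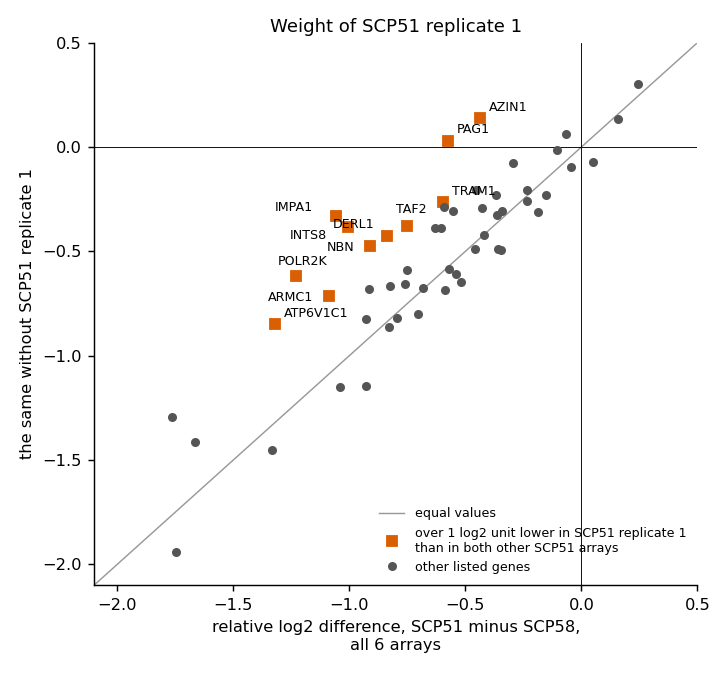
Relative log2 difference between SCP51 and SCP58 for the 54 listed genes with all 6 arrays (horizontal axis) and without SCP51 replicate 1 (vertical axis). Squares are the 11 genes more than 1 log2 unit lower in SCP51 replicate 1 than in both other SCP51 arrays, circles are the other genes and the diagonal marks equal values. Squares lie above the diagonal, and AZIN1 and PAG1 lie above 0 on the vertical axis, at 0.14 and 0.03.

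Other probe sets of the same genes were read as a description of how evenly the difference is seen along the transcripts. Of the 54 genes, 38 had further probe sets that passed the filter, 67 in all, with a median relative difference of -0.44 between SCP51 and SCP58 and a range of -2.84 to 0.47. Of these, 59 were below 0 and 58 shared the sign of the probe set taken for the gene. Both kept probe sets of MTFR1 were alike, at -1.66 and -1.75, as were those of LACTB2, at -1.33 and -1.44, and the 5 of MTDH ranged from -0.90 to -0.44. NCOA2, in contrast, stood at -1.75 on its brighter and at -0.19 on its dimmer kept probe set. TMEM70 stood at -0.36 on the brightest and at -1.54 and -0.47 on the others. Of the 5 probe sets of TPD52, 3 stood at -0.52, and the 2 dimmest at 0.02 and 0.47. MTSS1 and ZNF706, both called lower, stood at 0.18 and 0.47 on their other kept probe sets. In all, 10 genes had a kept probe set above 0. Among the probe sets taken for the genes, 25 carry the suffix s_at and 1 x_at, which Affymetrix gives to probe sets that can match several transcripts or related sequences, so the values of genes with close copies, such as FABP5 and PABPC1, may include signal from those copies.

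Many members are subunits of complexes or families whose other genes lie on other chromosomes, and 14 such lists were drawn up with earlier results of these data known. In all, 125 partner genes on other chromosomes were tested. Their median relative difference between SCP51 and SCP58 was -0.01, with 67 below 0, 3 called lower and 2 higher, against 2.6% and 1.48% of all genes. The called partners were STAG2, EMC4 and CHMP4B, lower at -0.51 ± 0.13, -0.24 ± 0.08 and -0.38 ± 0.10, and EIF3J and YWHAH, higher at 0.94 ± 0.15 and 0.75 ± 0.12 (limma adjusted p = 0.0409, 0.0499, 0.0362, 0.0244 and 0.0256). These p-values belong to the differences before the median of all genes was subtracted.

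In several complexes the listed gene had the lowest value of all measured subunits. This contrast chose the listed genes and not their partners, so these ranks are a description and support nothing. EMC2 stood at -1.04, and the 9 other subunits of the membrane protein insertion complex ranged from -0.27 to 0.36 with a median of -0.07. INTS8, a subunit of the Integrator complex that processes small nuclear RNAs, stood at -1.01, or -0.38 without SCP51 replicate 1, and was not called. With all arrays, 11 subunits encoded on other chromosomes ranged from -0.24 to 0.83. The lowest of these, INTS12, stood at -0.30 without SCP51 replicate 1, close to INTS8. ATP6V1C1, a subunit of the proton pump of lysosomes, stood at -1.32, or -0.85 without SCP51 replicate 1, while 4 subunits on other chromosomes had a median of 0.04 and a highest value of 0.48. Within MRN and shelterin, TERF1 at -1.77 and NBN at -0.91, or -1.29 and -0.47 without SCP51 replicate 1, were the lowest of 9 genes, and the 7 others had a median of -0.13. Among 24 genes of RNA polymerase II and the general factor TFIID, POLR2K at -1.23 was the lowest, TAF2 stood at -0.75, and the 22 others had a median of -0.06 and a lowest value of -0.96, for TAF11. Without SCP51 replicate 1, POLR2K stood at -0.62 and TAF2 at -0.38, and TAF11 was the lowest at -1.05.

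The other lists were more mixed. EIF3H and EIF3E, at -0.43 and -0.29, were the next lowest of 12 eIF3 subunits after EIF3F at -0.54, and the 10 subunits on other chromosomes had a median of 0.05. That order did not hold without SCP51 replicate 1, where EIF3K stood at -0.31, EIF3H at -0.29, EIF3E at -0.08 and EIF3F at -0.07. COPS5, at -0.23, was the next lowest of 10 COP9 signalosome subunits after COPS4 at -0.51, or -0.29 for COPS4 without SCP51 replicate 1. RAD21, at -0.15, was sixth of 12 cohesin genes, whose 10 members on other chromosomes had a median of -0.22. MRPL13 at -0.83 and CHMP4C, an ESCRT-III protein of abscission, at -0.82 were each the second lowest of their lists with all arrays, with medians of -0.11 and -0.34 for the partners on other chromosomes. E2F5 and CCNE2, at 0.05 and -0.07, lay among the 9 other E2F and cyclin E genes, which ranged from -0.49 to 0.42. The lowest of these, E2F1, stood at 0.14 without SCP51 replicate 1. YWHAZ, at -0.05, was the lowest of 7 genes of its family, whose other 6 had a median of 0.21. PABPC1, at -0.10, and YTHDF3, at -0.45, each had 1 measured paralogue on another chromosome in these lists, PABPC3 at -0.01 and YTHDF1 at 0.64. Mean signals in SCP51 were 4617 for PABPC3 and 6413 for PABPC1, and whether the PABPC3 value includes signal from PABPC1 was not tested.

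**Figure D5:**
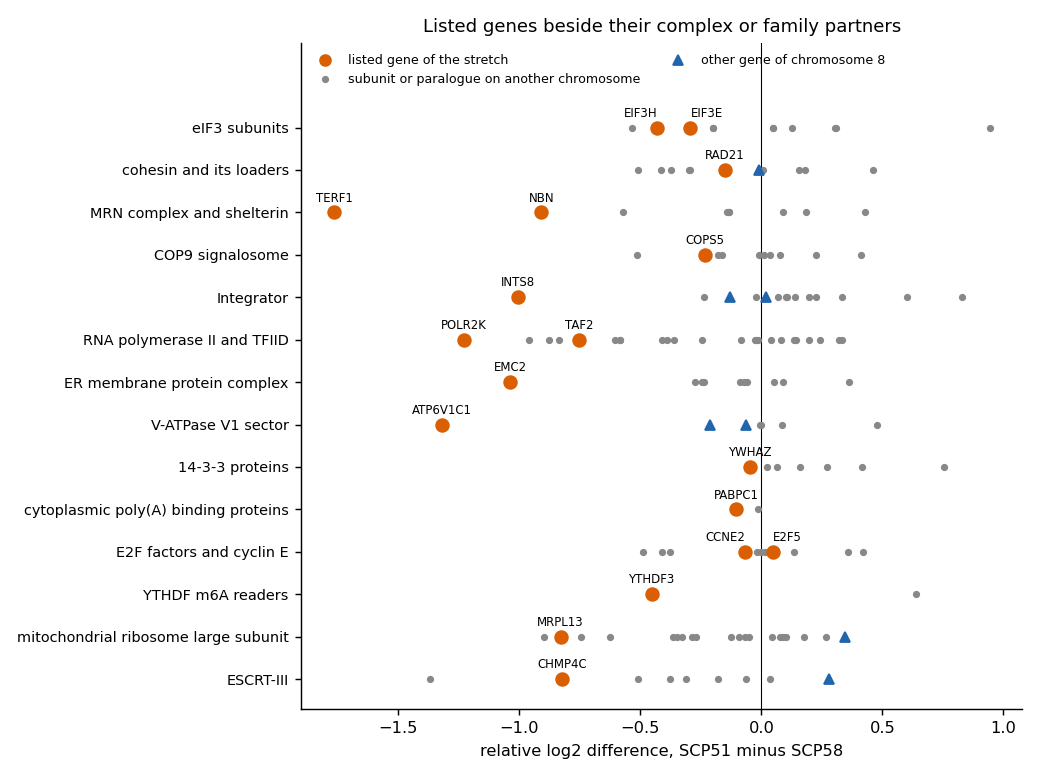
Relative log2 difference between SCP51 and SCP58 for listed genes (orange, named) and for the other genes of their complex or family on other chromosomes (grey) or elsewhere on chromosome 8 (blue triangles), with a row for each of the 14 lists. Each point is a gene, and 0 is the median of all genes. EMC2, INTS8 and ATP6V1C1 lie at -1.04, -1.01 and -1.32, left of every other subunit in their rows. The contrast shown chose the listed genes and not their partners.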

How the data were processed

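The deposited table holds 54675 probe sets on 9 arrays, each value being a linear intensity. The authors used GCOS 1.4, as the submitters' processing notes record. Neither scaling target nor background method nor probe summary is given in the sources used here. Values below 1 (514) were set to 1 and log2 was taken without rescaling. After 62 control probe sets were left out, probe sets above the array median on at least 3 arrays were kept. Symbols were updated through Entrez identifiers in RefSeq (GRCh38.p14). For each gene the kept probe set with 1 symbol and the highest mean was used.

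limma 3.58.1 (R 4.3.3) fitted 1 mean per group to all 9 arrays, with an intensity trend. P-values are two-sided and adjusted over all 13598 genes by the Benjamini-Hochberg method. They test the log2 difference before the median of all genes is subtracted. Standard errors treat the subtracted median of all genes as fixed. The fit was tested on simulated arrays. The number of arrays limits the precision.

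The members, the role groups and the partner lists were chosen with earlier results of these data known. Every member could be named. Values on each array are given for the 3 brightest members of each role group and for the 4 largest and 4 smallest differences between SCP51 and SCP58, and the values on each array of STAU2, PTDSS1 and MTSS1 were added after they were seen. Partner genes are named when called or as the extremes or single paralogues of a list, or where SCP51 replicate 1 changes an order, these last chosen after their values were seen. Figures were drawn with matplotlib 3.10.9.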

Additional observations from a re-analysis of the deposited data

How the results depend on the processing

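No alternative gave a called member higher in SCP51 than in SCP58 or SW480/EGFP. The number of members called between SCP51 and SCP58 (17) and between SCP51 and SW480/EGFP (13) stood against 4.08% and 2.96% of all genes. It was 29 and 27 with array weights, against 11.2% and 9.97% of all genes. With only the 6 arrays compared it was 4 and 5, against 0.985% and 1.11%. Over all 159 measured genes of the stretch, 105 of which are not members, 50 and 36 genes were called. At an adjusted p under 0.01 the number of called members was 5 and 3. No share of all genes is set beside that number, so nothing is read from it. With the replicate number as a block, the replicate block, the number of called members was 8 and 6, against 1.54% and 1.23%. Deviations of arrays with the same number correlated at -0.22 to 0.13, over 0.1 in 1 of 9 pairs. In 1 of 9 cases an array correlated best with its own number. With 3 arrays per group this cannot tell whether arrays of the same number shared anything else. Leaving out single arrays gave 5 to 28 and 3 to 19 called members. The fits that gave 5 and 28 called 1.22% and 8.8% of all genes. Those that gave 3 and 19 called 0.934% and 5.27%. Between SCP58 and SW480/EGFP, with no called member, array weights gave 7, against 9.94% of all genes. For the mean of both derived lines against SW480/EGFP, also with no called member, array weights gave 13, against 9.6% of all genes. In that comparison 32 added before log2 gave 1 and the filter at the 65th percentile gave 1, against 0.699% and 0.838%. Over the whole stretch 4 genes were called, none of them members, and leaving out single arrays gave 0 to 4 called members. The median relative difference between SCP51 and SCP58 was -0.72 to -0.42 when single arrays were left out, that between SCP51 and SW480/EGFP -0.63 to -0.43, that between SCP58 and SW480/EGFP 0.02 to 0.17 and that of both derived lines against SW480/EGFP -0.27 to -0.13. Of 162 values of counts and medians under the alternatives, 134 stayed within 1.5 times the count or within the spread between arrays, and none reversed. For single genes 489 of 494 values stayed within the spread between arrays. No filter, quantile normalization, centring on the 75th percentile, no intensity trend and averaging over probe sets moved none of the counts or medians beyond these limits. The fit to only the arrays compared was not run for the mean of both derived lines, which needs all groups.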
